A study of Homo sapiens with 65 samples.

Results

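Human cardioids carrying a knockout (KO) of HAS2 were compared with wild-type (WT) cardioids at day 7.5 of left-ventricular differentiation. The comparison took every library whose title gives that day and either genotype, 3 KO and 3 WT, which is 6 of the 65 libraries in the series. Cardioids are self-organising cardiac aggregates, here grown from the human induced pluripotent stem cell line WTC-11. The series followed WT and KO cardioids from day 1.5 to day 7.5 and, in a separate arm, WT cardioids exposed to hyaluronidase (HAse), an enzyme that digests hyaluronan.

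The KO libraries, whose genotype label reads HAS2-KO, came from clone cl4 (libraries cl4_R2 and cl4_R3) and clone cl14 (library cl14_R1). The WT libraries came from the line named WT (libraries WT_R1 and WT_R2) and the line named WT_TU (library WT_TU_R2). Both genotypes went through the same media. Mesoderm was induced with activin A, BMP4, FGF2-G3, the WNT pathway activator CHIR99021 and the PI3-kinase inhibitor LY294002. The cells were reseeded at day 1.5 into low-attachment plates, patterned with insulin, retinoic acid, BMP4, FGF2-G3 and the WNT secretion inhibitor C59, and later given a cardiomyocyte medium. None of the 6 libraries had been given hyaluronidase. RNA of 8 cardioids was pooled for each library. The edit itself is not described in the sources used here. P-values rest on the spread between libraries of the same genotype and day, estimated over the WT and KO libraries of all days and not these 6 alone. With 2 lines for each genotype, an effect of losing HAS2 cannot be told apart from other differences between these clones and the WT lines.

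Hyaluronan is a long unbranched sugar polymer that HAS2, a synthase in the plasma membrane, extrudes into the extracellular space. In the embryonic heart it swells the cardiac jelly, the matrix between the muscle layer and the inner lining, and mouse embryos without Has2 lack this matrix and die with a malformed heart. Embryonic cardiomyocytes contract and divide at the same time. Cyclins A and B, with the kinase CDK1, carry a cell into mitosis, where kinetochores tie chromosomes to the spindle and a contractile ring then divides the cell. Many genes of these late steps share promoter elements, the CCAAT box bound by NF-Y and the cell cycle genes homology region (CHR) bound by MuvB complexes, and are switched on together in dividing cells.

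The 6 libraries held 1432869 to 1948529 counts, and replicates differed by 2.54 to 6.59 times counting noise (chi-square per degree of freedom). HAS2 itself was counted at 187 CPM (counts per 1000000 counts of the library) in WT_R1, 264 CPM in WT_R2 and 363 CPM in WT_TU_R2, against 271 CPM in cl4_R2, 294 CPM in cl4_R3 and 378 CPM in cl14_R1. The groups overlapped, with a log2 fold change of KO against WT of 0.18 ± 0.38 (SE, n = 3 and 3). The assay reads the 3′ end of transcripts, which an edit elsewhere in the gene can leave transcribed, so this level does not check the genotype. Sarcomere genes, which mark cardiomyocytes, took 8.48% to 9.17% of all counts in WT and 7.65% to 8.61% in KO. Genes of blood cells summed to 3.88 to 9.78 CPM, with 9 of 18 at 0 in all 6 libraries. Library numbers run in 3 blocks, called A, B and C here. WT_R1 is in A, the pair WT_R2 and WT_TU_R2 is in B with cl4_R2, and the pair cl4_R3 and cl14_R1 is in C, so only block B holds both genotypes at this day.

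Between KO and WT, 48 of 13797 tested genes (0.348%) passed an adjusted p of 0.05 in edgeR's quasi-likelihood test with Benjamini-Hochberg adjustment. Of these, 40 were lower in KO (0.29% of the genes tested) and 8 were higher (0.058%). The lower genes had log2 fold changes from −4.11 to −0.96 with a median of −2.38, and the higher ones from 1.52 to 3.61 with a median of 2.18. Over all tested genes 50.4% had a negative sign. In each of the 40 lower genes every KO library lay below every WT library, and in each of the 8 higher genes every KO library lay above. Among all tested genes these shares were 7.72% and 9.11%. All 48 differences had the same sign within block B, where cl4_R2 faces WT_R2 and WT_TU_R2. The 48 genes were picked with these same libraries, so neither this agreement nor the separation of the groups is an independent check. When each library was left out in turn, 19 of the 48 (18 lower, 1 higher) were called in all 6 fits, and the number of genes called ranged from 27 (without cl14_R1) to 40 (without WT_R2). A gene's overlap with others matters because the strand setting of the counting is not given in the sources used here: 21 of the 48 share exon bases with another gene, 2 of them (CCND2 and PCLAF) on the same strand. These are bulk libraries, in which fewer cells of a kind and less RNA in each cell cannot be told apart.

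**Figure D1:**
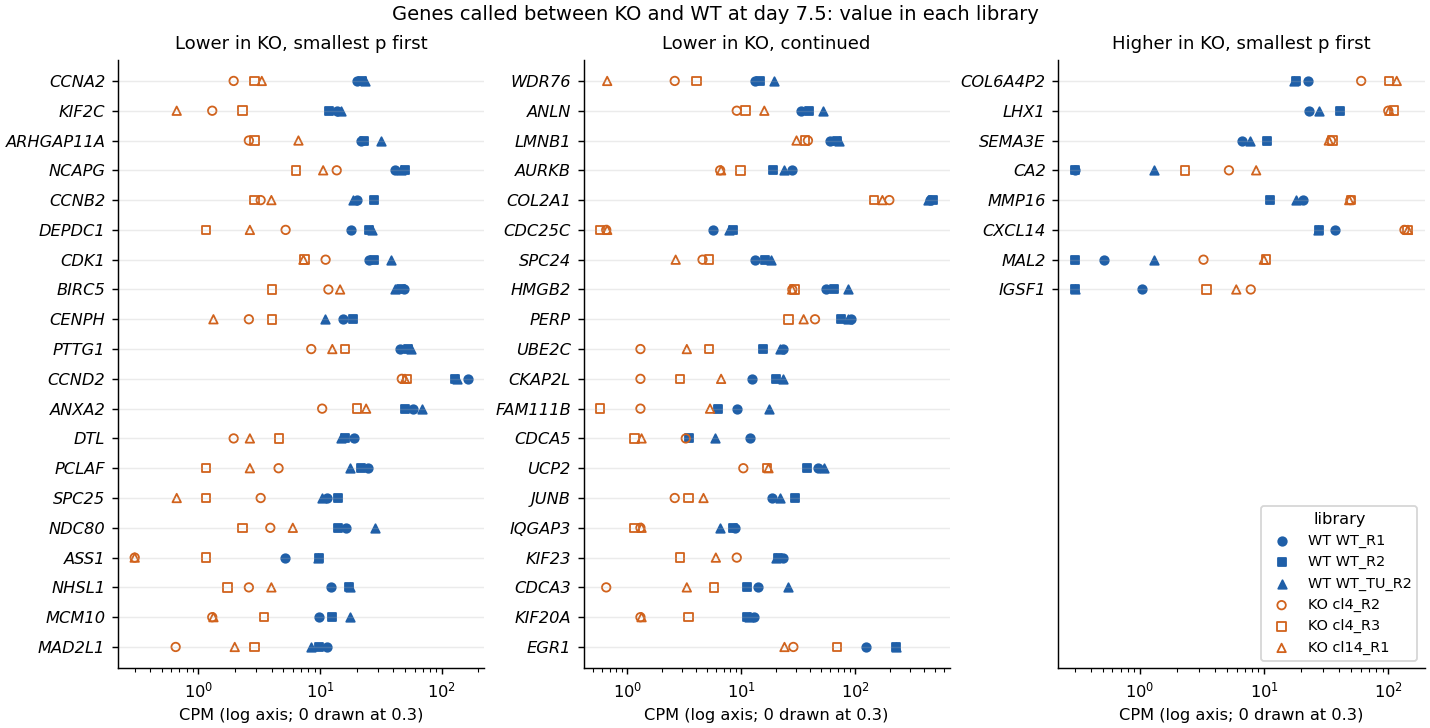
Expression of the 48 called genes in each library at day 7.5, in CPM on a logarithmic axis with 0 drawn at 0.3 CPM. Filled blue symbols are the 3 WT libraries and open orange symbols the 3 KO libraries. In every row the KO values lie wholly below or wholly above the WT values, by a narrow margin in CDCA5 (cl4_R2 at 3.25 CPM, WT_R2 at 3.49 CPM).

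The lower genes included 16 of the mitosis list, cyclins A2 and B2 among them. CCNA2 (cyclin A2, ENSG00000145386, GRCh38 chromosome 4, 121816444 to 121823933, minus strand) had the smallest p-value of all genes. It was counted at 20 CPM in WT_R1, 22.3 CPM in WT_R2 and 23.3 CPM in WT_TU_R2. In KO it had 1.95 CPM in cl4_R2, 2.88 CPM in cl4_R3 and 3.32 CPM in cl14_R1. Each group was tight and the groups lay far apart, with an 8.07-fold lower level in KO (log2 fold change −3.01 ± 0.30, SE, n = 3 and 3, edgeR adjusted p = 1.63e-08). Its exons overlap those of EXOSC9 on the other strand. CCNB2, the mitotic cyclin B2 on chromosome 15, had 20, 27.9 and 18.8 CPM in WT_R1, WT_R2 and WT_TU_R2. Its values in cl4_R2, cl4_R3 and cl14_R1 were 3.25, 2.88 and 3.98 CPM, a 6.66-fold lower level (−2.74 ± 0.38, edgeR adjusted p = 3.1e-05). CDK1, the kinase that both cyclins activate, was at 25.1, 27.9 and 38.1 CPM in WT and at 11.1, 7.48 and 7.3 CPM in KO (3.59-fold lower, edgeR adjusted p = 7.06e-05). CDC25C, the phosphatase that releases CDK1 from inhibition, had 35 counts over the 3 WT libraries and 3 over the KO libraries. This is an 11.3-fold ratio with a 95% counting interval of 3.57 to 57.5, and its call was lost without cl4_R3 (edgeR adjusted p = 0.0536) and without cl14_R1 (0.0524).

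Genes of the chromosome and spindle machinery fell too. KIF2C, a kinesin that takes microtubules apart at the centromere (chromosome 1, 44739818 to 44767767, plus strand), had 13.9, 11.9 and 14.9 CPM in WT_R1, WT_R2 and WT_TU_R2. In cl4_R2, cl4_R3 and cl14_R1 it had 1.3, 2.3 and 0.664 CPM, a 9.18-fold lower level (log2 −3.20 ± 0.40, edgeR adjusted p = 6.09e-06). The KO values rest on 2, 4 and 1 counts. NCAPG, a condensin subunit that compacts mitotic chromosomes, was at 41.1, 50.2 and 46.6 CPM in WT and at 13.7, 6.33 and 10.6 CPM in KO (4.62-fold lower). BIRC5, the survivin subunit of the chromosomal passenger complex, was at 48.8, 46.1 and 41.4 CPM against 11.7, 4.03 and 14.6 CPM (4.65-fold lower). The KO libraries varied more than the WT libraries in BIRC5, and the groups still stood apart. Its partner AURKB, a kinase that corrects spindle attachments, was 3.13-fold lower. PTTG1, the securin that keeps sister chromatids from separating before anaphase, was 4.2-fold lower. NDC80 and SPC25, subunits of the outer kinetochore complex that grips microtubules, were 4.95-fold and 7-fold lower, and CENPH of the inner kinetochore 5.61-fold lower. MAD2L1, which delays anaphase until all kinetochores are attached, was 5.26-fold lower. ANLN, the scaffold of the contractile ring, was 3.53-fold lower. DEPDC1 and ARHGAP11A, whose transcripts are known to peak in mitosis, were 7.86-fold and 6.42-fold lower. ARHGAP11A has a partial human duplicate with which its reads could be split. Without cl4_R2 the calls of MAD2L1, ANLN and AURKB were lost (edgeR adjusted p = 0.0723, 0.0588 and 0.0537), and without cl14_R1 that of AURKB (0.0563).

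The promoters of these genes are shown because many hold the elements named above. RefSeq promoters on GRCh38.p14, 250 bases before to 50 bases after the annotated start, were found for 32 of the 40 lower genes and for 10333 of all tested genes. The CHR, searched as TTTGAA or TTCGAA on both strands, was in 14 of the 32 (43.8%) and in 11.3% of the promoters of all tested genes. The CCAAT box, searched as CCAAT on both strands, was in 18 (56.2%) against 37.1%, and both elements together were in 8 (25%) against 4.97%. The E2F site, searched on both strands as TTTCCCGC, TTTGGCGC, TTTCGCGC or TTTGCCGC, was in 3 (9.38%) against 5.31%. Matches of different motifs can overlap by an end letter. Of the full mitosis list of 40 genes, 35 had a promoter, and 27 of these (77.1%) held the CHR. Promoters with a CHR alone or with no match are not among the 5 printed here. Of those printed, CCNA2 shows a CCAAT box alone. Forms of the CHR other than TTTGAA and TTCGAA were not searched, so this does not show that CCNA2 lacks the element. CCNB2, DEPDC1, SPC25 and KIF23 hold both elements, a pairing found in 25% of the promoters of the lower genes. The printed promoters all belong to called genes. They run 5′ to 3′ along the gene's strand, with each match on either strand in capitals, so that ATTGG is a CCAAT box and TTCAAA a CHR read from the other strand. They are CCNA2 (chr4:121823834-121824133, minus strand), CCNB2 (chr15:59104896-59105195, plus strand), DEPDC1 (chr1:68497033-68497332, minus strand), SPC25 (chr2:168890381-168890680, minus strand) and KIF23 (chr15:69414099-69414398, plus strand).
CCNA2: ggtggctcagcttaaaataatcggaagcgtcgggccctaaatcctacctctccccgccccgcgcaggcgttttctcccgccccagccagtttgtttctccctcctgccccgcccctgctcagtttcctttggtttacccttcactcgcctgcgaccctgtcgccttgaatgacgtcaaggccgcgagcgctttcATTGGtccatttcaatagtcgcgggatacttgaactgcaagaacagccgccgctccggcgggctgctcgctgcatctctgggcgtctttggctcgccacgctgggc
CCNB2: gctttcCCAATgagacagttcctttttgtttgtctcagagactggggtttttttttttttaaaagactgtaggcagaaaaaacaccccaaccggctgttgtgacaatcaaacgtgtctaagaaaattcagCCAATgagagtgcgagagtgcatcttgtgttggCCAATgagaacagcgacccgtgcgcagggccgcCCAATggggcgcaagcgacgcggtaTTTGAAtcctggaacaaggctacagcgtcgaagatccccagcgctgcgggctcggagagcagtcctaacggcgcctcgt
DEPDC1: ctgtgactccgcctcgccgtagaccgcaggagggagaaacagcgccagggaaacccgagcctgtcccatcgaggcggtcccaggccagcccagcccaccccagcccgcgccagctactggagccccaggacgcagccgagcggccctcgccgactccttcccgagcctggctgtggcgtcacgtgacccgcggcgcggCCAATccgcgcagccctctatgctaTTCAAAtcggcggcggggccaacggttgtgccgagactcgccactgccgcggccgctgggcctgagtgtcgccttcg
SPC25: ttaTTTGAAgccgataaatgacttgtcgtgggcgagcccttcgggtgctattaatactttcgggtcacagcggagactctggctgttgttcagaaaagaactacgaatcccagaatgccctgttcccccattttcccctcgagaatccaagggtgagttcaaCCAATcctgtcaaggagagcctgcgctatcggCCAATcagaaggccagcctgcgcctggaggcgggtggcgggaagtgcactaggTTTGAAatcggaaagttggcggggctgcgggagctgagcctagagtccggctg
KIF23: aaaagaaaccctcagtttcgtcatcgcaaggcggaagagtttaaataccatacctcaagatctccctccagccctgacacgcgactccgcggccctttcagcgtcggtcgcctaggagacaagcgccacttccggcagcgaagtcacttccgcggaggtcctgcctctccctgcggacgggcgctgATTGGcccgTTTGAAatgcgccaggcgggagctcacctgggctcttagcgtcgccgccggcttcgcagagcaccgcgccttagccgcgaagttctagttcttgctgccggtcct
CCNB2 holds 4 CCAAT boxes and 1 CHR, the latter at position −29 from the start. DEPDC1 has a CCAAT box at −52 followed by a CHR at −27. In CCNA2 one CCAAT box, at −56, was matched. A match is a run of letters and not a measured binding site.

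A list of 40 genes of mitosis and chromosome segregation was tested in full. All 40 had a negative log2 fold change, 16 were called lower (0.29% of all genes) and none higher. In 34 of them every KO library lay below every WT library, against 7.72% of all genes. The median was −1.84, with a range from −3.42 to −0.58, and within block B it was −2.01. Called members not yet named were UBE2C (a ubiquitin-conjugating enzyme of the anaphase-promoting complex), the kinesins of cytokinesis KIF23 and KIF20A, and the spindle protein CKAP2L. When a library was left out, UBE2C and CKAP2L were each called in 2 of 6 fits, KIF23 in 1 and KIF20A in none, with edgeR adjusted p of KIF20A from 0.0536 (without cl4_R3) to 0.284 (without cl14_R1). The members with the highest counts did not pass. TOP2A, the topoisomerase that untangles replicated chromosomes, was at 310, 414 and 510 CPM in WT_R1, WT_R2 and WT_TU_R2 and at 101, 190 and 136 CPM in cl4_R2, cl4_R3 and cl14_R1 (log2 −1.56 ± 0.57, edgeR adjusted p = 0.482). CENPF, a kinetochore protein, was at 174, 200 and 213 CPM against 69.6, 82.9 and 65 CPM (−1.47 ± 0.64, edgeR adjusted p = 0.78). The groups did not overlap in either gene. CCNB1, the mitotic cyclin B1, named after its values were seen, was at 13.3, 44.7 and 51.7 CPM against 11.7, 28.8 and 11.9 CPM. Its groups overlapped (−1.07 ± 0.40, edgeR adjusted p = 0.532). The spread used in the test is estimated over all days of the genotype arm. MKI67, a proliferation marker in none of the lists and named after its values were seen, was at 102, 142 and 154 CPM against 28.6, 56.4 and 39.2 CPM (−1.71 ± 0.61, edgeR adjusted p = 0.465).

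Summed over the list, the 40 genes had 1298 CPM in WT_R1, 1584 CPM in WT_R2 and 1905 CPM in WT_TU_R2. In KO the sums were 492 CPM in cl4_R2, 652 CPM in cl4_R3 and 530 CPM in cl14_R1. The groups lay apart with no overlap. The sum also moved with the library-number block. At day 1.5 the block A libraries of both genotypes had 4236 to 5202 CPM and those of blocks B and C 7605 to 7895 CPM, and at day 4.5 the ranges were 1454 to 1511 CPM and 1915 to 4105 CPM. At day 7.5 the block A library is WT_R1, the lowest of the WT libraries. With the blocks as a factor in the fit, 30 list members were called in place of 16, while the lower calls over all genes rose from 40 to 105 (0.761% of the genes tested). At day 7.5 block A holds only WT and block C only KO. The block terms of that fit therefore also rest on the earlier days, and it takes them to be the same on every day. In that fit TOP2A (−2.29, edgeR adjusted p = 1.44e-06), CENPF (−2.26, 1.07e-05) and MKI67 (−2.37, 1.07e-05) passed.

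**Figure D2:**
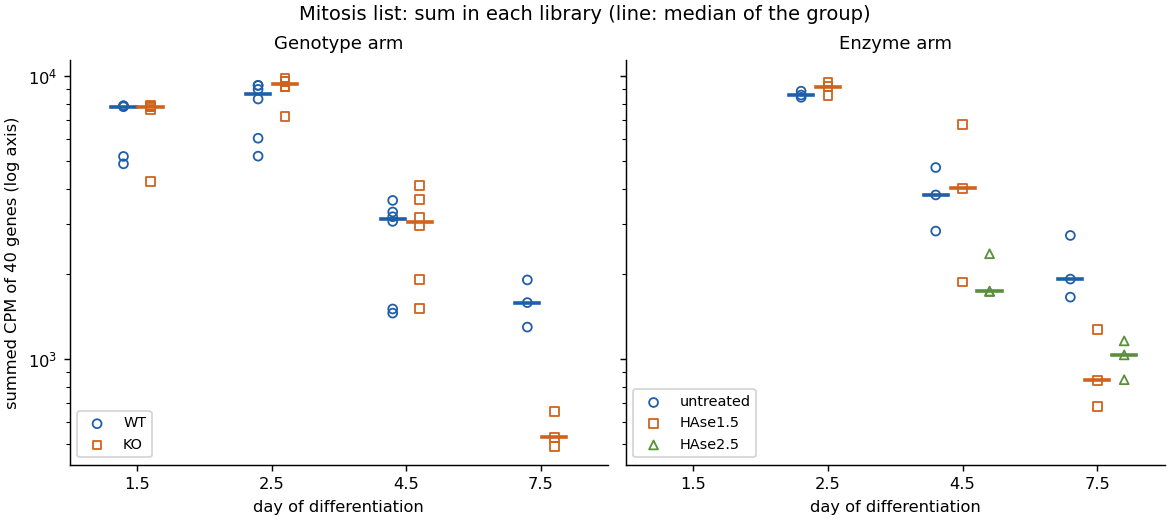
Summed CPM of the 40 genes of the mitosis list in every library, on a logarithmic axis, by day of differentiation, for the genotype arm (left) and the enzyme arm (right). Open symbols are libraries and short lines group medians. At day 7.5 the 3 KO libraries (492 to 652 CPM) lie below the 3 WT libraries (1298 to 1905 CPM), while at day 4.5 the genotypes overlap.

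In the list of DNA replication and S phase, 31 of 32 genes were tested. Of these, 29 had a negative sign, 1 was called lower and none higher, with a median of −0.96. At an unadjusted p under 0.05, 19 were lower, against 3.23% of all genes. The called member was MCM10, a factor that starts the replication fork, at 9.75, 12.6 and 17.5 CPM in WT_R1, WT_R2 and WT_TU_R2 and at 1.3, 3.45 and 1.33 CPM in cl4_R2, cl4_R3 and cl14_R1 (6.33-fold lower, edgeR adjusted p = 0.00349). Its call was lost without cl4_R2 (0.0537) and without cl14_R1 (0.0562). MCM3, a subunit of the replicative helicase, was at 88.3, 83.1 and 93.1 CPM against 47.5, 57 and 56.4 CPM. The groups were tight and did not overlap, and the test fell just short (log2 −0.75 ± 0.18, edgeR adjusted p = 0.0516). Outside the list, DTL, which targets the licensing factor CDT1 for destruction, was 5.41-fold lower, and PCLAF, which binds the polymerase clamp PCNA, 7.82-fold lower. WDR76 was 6.35-fold lower and was not called without cl14_R1 (edgeR adjusted p = 0.076).

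Among 17 tested cyclins, cyclin-dependent kinases and their inhibitors outside mitosis, 1 was called lower and none higher, with a median of −0.29. CCND2 (cyclin D2, chromosome 12) was at 163, 129 and 134 CPM in WT_R1, WT_R2 and WT_TU_R2 and at 46.9, 51.8 and 49.8 CPM in cl4_R2, cl4_R3 and cl14_R1. The KO libraries were nearly alike, and the level was 2.95-fold lower (log2 −1.56 ± 0.24, edgeR adjusted p = 0.000105). D-type cyclins act at entry into the cell cycle. CDKN1A, the p21 inhibitor that stops the cycle and is a target of p53, was at 30.3, 27.2 and 43.3 CPM against 9.76, 10.9 and 9.29 CPM (−1.78 ± 0.45, edgeR adjusted p = 0.0794). It is named after its values were seen. Every KO library lay below every WT library in this inhibitor as well.

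Some lower genes have other roles. ANXA2 (annexin A2, a calcium-dependent membrane-binding protein, chromosome 15) was at 58.5, 50.2 and 69.2 CPM in WT_R1, WT_R2 and WT_TU_R2 and at 10.4, 20.1 and 23.9 CPM in cl4_R2, cl4_R3 and cl14_R1 (3.35-fold lower, edgeR adjusted p = 0.000106). COL2A1, the fibrillar collagen best known from cartilage, had 453, 482 and 436 CPM against 199, 146 and 173 CPM (2.72-fold lower, edgeR adjusted p = 0.00402), and its call was lost without cl4_R3 (0.0651) and without cl14_R1 (0.0509). ASS1, an enzyme of arginine synthesis, had 39 counts over the WT libraries and 2 over the KO libraries, a ratio of 18.9 with a 95% counting interval of 4.9 to 162. It was the one called gene of the 24 tested in the list of amino acid synthesis and the ATF4 response (median −0.58). LMNB1, a nuclear lamin, had the smallest called decrease, from 60, 68.4 and 71.8 CPM to 38.4, 36.3 and 30.5 CPM (1.95-fold), and was not called without cl14_R1 (0.0769). NHSL1 was 5.75-fold lower. The other called genes below, all named after their values were seen, were 2.46-fold to 6.17-fold lower. They are SPC24 (outer kinetochore), CDCA5 (sororin, which protects sister chromatid cohesion), CDCA3, HMGB2 (a chromatin protein), IQGAP3, FAM111B, PERP (a desmosomal p53 target) and UCP2 (a mitochondrial carrier). Each of these calls was lost in at least 1 of the 6 fits that left out a library. SPC24 was called in 5, HMGB2, FAM111B and CDCA5 in 3, PERP and CDCA3 in 2, and UCP2 and IQGAP3 in 1. The highest edgeR adjusted p was 0.103 for SPC24 (without cl14_R1), 0.101 for HMGB2, 0.301 for FAM111B and 0.383 for CDCA3 (each without WT_TU_R2), 0.963 for CDCA5 (without WT_R1), 0.193 for PERP and 0.172 for IQGAP3 (without cl4_R3), and 0.235 for UCP2 (without cl4_R2).

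A pair of immediate early transcription factors, which cells switch on within minutes of a growth or mechanical stimulus, was called too, and both are named after their values were seen. EGR1 was at 123, 230 and 230 CPM in WT_R1, WT_R2 and WT_TU_R2 and at 28.6, 69.1 and 23.9 CPM in cl4_R2, cl4_R3 and cl14_R1 (4.85-fold lower, edgeR adjusted p = 0.0434). JUNB was at 18.5, 29.3 and 22 CPM against 2.6, 3.45 and 4.65 CPM (6.57-fold lower, edgeR adjusted p = 0.024). Neither gene overlapped between the genotypes. EGR1 was called in 2 of the 6 fits without a library (without WT_R1, 0.0409, and without cl4_R3, 0.0268) and had 0.154 to 0.371 in the others. JUNB was called in 1 (without WT_R1, 0.0432) and had 0.0602 to 0.204 in the others. FOS, of the same class, was at 14.4, 25.1 and 18.1 CPM against 1.95, 5.76 and 2.65 CPM (log2 −2.46 ± 0.64, edgeR adjusted p = 0.086). The untreated WT libraries of the enzyme arm at day 7.5 had EGR1 at 8.16 to 128 CPM, JUNB at 1.48 to 5.11 CPM and FOS at 0.742 to 9.82 CPM. The KO values of each lay within these ranges, so the lower level in KO holds only against the WT libraries compared here. JUN was at 49.1 to 72 CPM in those untreated libraries, above its KO values. Of 11 genes of the FOS, JUN and EGR families, a set chosen after the values were seen, 7 were tested and 6 had a negative sign. Besides EGR1, JUNB and FOS these were FOSB (−1.62), JUN (−0.38) and JUND (−0.04), while FOSL2 was at 1.76. The calls in the set were those of EGR1 and JUNB, where 0.29% of all genes were called lower. In 5 of the 7 every KO library lay below every WT library, against 7.72% of all genes. Of other immediate early genes, IER2 had −0.79 ± 0.25 (edgeR adjusted p = 0.276), and ATF3 and DUSP1 overlapped between the groups.

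The 8 higher genes came from different families. COL6A4P2 is annotated as a transcribed pseudogene of a collagen VI chain, and was the one higher gene called whichever library was left out. It was at 22.6, 18.1 and 17.5 CPM in WT_R1, WT_R2 and WT_TU_R2 and at 60.5, 101 and 117 CPM in cl4_R2, cl4_R3 and cl14_R1 (4.63-fold higher, edgeR adjusted p = 0.000271). LHX1, a LIM-homeobox factor of early mesoderm and kidney, rose from 23.1, 40.5 and 27.8 CPM to 100, 111 and 102 CPM (3.35-fold, edgeR adjusted p = 0.00349). SEMA3E, a secreted guidance cue for vessels and axons, rose from 6.67, 10.5 and 7.76 CPM to 34.5, 35.7 and 33.2 CPM (4.06-fold, edgeR adjusted p = 0.00402). The KO values of both genes were close to one another, and both calls were lost without WT_R1 (edgeR adjusted p = 0.0595 and 0.0625). CXCL14, a chemokine, was at 37, 27.9 and 27.2 CPM against 135, 143 and 144 CPM (4.44-fold higher), and was called in none of the 6 fits without a library (edgeR adjusted p from 0.053, without cl4_R2, to 0.151, without WT_TU_R2). MMP16, a membrane-bound matrix metalloproteinase, was 2.86-fold higher and called in 1 of the 6 (without WT_R1, 0.0298). CA2 (carbonic anhydrase 2), MAL2 (a membrane-traffic protein of epithelia) and IGSF1 (a membrane glycoprotein) had 2, 3 and 2 counts over the WT libraries and 25, 38 and 27 over the KO libraries. The ratios were 12.9 (95% counting interval 3.21 to 112), 13.1 (4.14 to 66.1) and 13.9 (3.5 to 121), and the genes were called in 3, 1 and 2 of the 6 fits. In the untreated WT libraries of the enzyme arm at day 7.5, CA2 was at 2.23 to 4.47 CPM and IGSF1 at 2.97 to 4.46 CPM. Both ranges overlap KO, whose lowest values were 2.3 and 3.45 CPM (cl4_R3). MAL2 was at 0 to 1.78 CPM there, below every KO value, as were the remaining higher genes.

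In the sarcomere list, 27 of 28 genes were tested and none was called by edgeR or by DESeq2, with 2 lower and none higher at an unadjusted p under 0.05. The median log2 fold change was −0.17, and 22 of 27 were below 0. TTN, the giant elastic filament, was at 22724, 34192 and 36326 CPM in WT_R1, WT_R2 and WT_TU_R2 and at 34017, 34553 and 31206 CPM in cl4_R2, cl4_R3 and cl14_R1. MYH6, the alpha myosin heavy chain, was at 9235, 9395 and 8556 CPM against 8517, 9922 and 8144 CPM. Both overlapped between genotypes, with 95% intervals of the log2 fold change from −1.52 to 1.65 and from −1.03 to 0.89. TPM1 (tropomyosin) was at 8943, 9540 and 8530 CPM against 7619, 8392 and 7090 CPM. The light chain MYL7, named after its values were seen, was at 10062, 8343 and 8856 CPM against 6162, 6792 and 5593 CPM. Every KO library lay below every WT library in TPM1 and MYL7, without passing the test (−0.26 ± 0.38 and −0.59 ± 0.55). With library-number blocks in the fit the median of the list was 0.18, so its sign depends on that choice. The cardiac transcription factor NKX2-5 overlapped, at 438 to 792 CPM in WT and 483 to 662 CPM in KO.

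**Figure D3:**
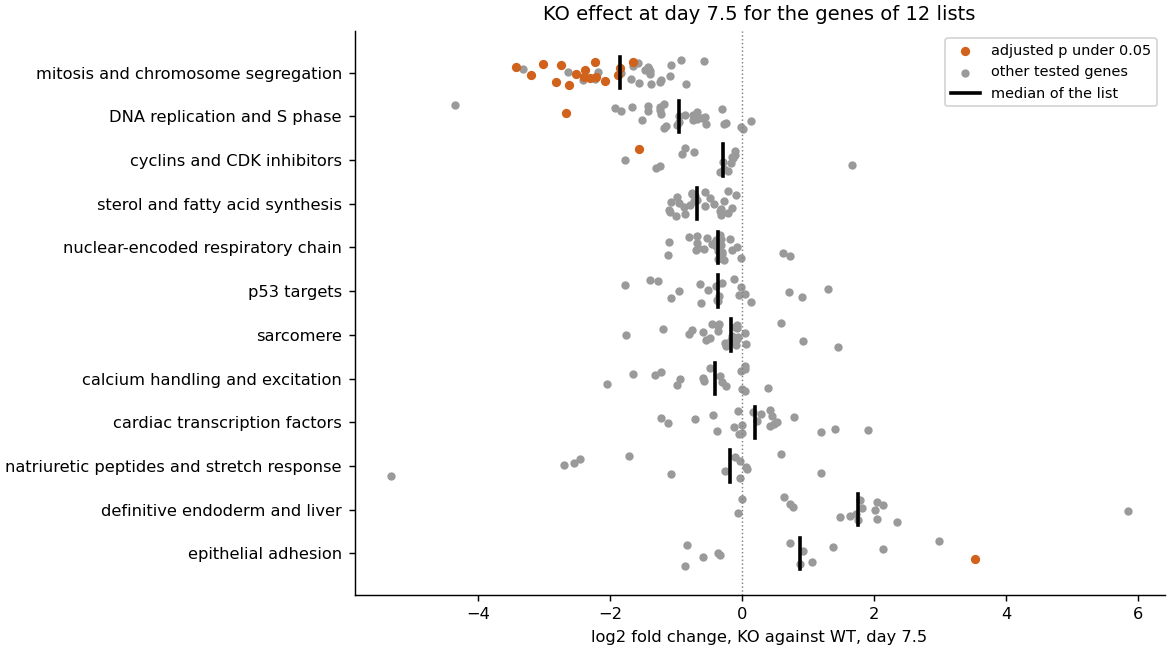
Log2 fold change of KO against WT at day 7.5 for every tested gene of 12 lists. Each point is a gene, orange where the adjusted p is under 0.05, and each black line a list's median. The mitosis list lies wholly below 0 with a median of −1.84, and the sarcomere list has a median of −0.17.

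In the list of natriuretic peptides and stretch-response genes 14 were tested and none was called by edgeR, with 5 lower and 1 higher at an unadjusted p under 0.05 and 1 lower by DESeq2 (median −0.19). That gene was ANKRD1, a cardiac ankyrin repeat protein and YAP target that rises with mechanical load. It was at 489, 655 and 696 CPM in WT_R1, WT_R2 and WT_TU_R2 and at 143, 112 and 88.3 CPM in cl4_R2, cl4_R3 and cl14_R1. The groups lay far apart. Its log2 fold change of −2.46 ± 0.63 missed the threshold in edgeR (adjusted p = 0.0819) and passed in DESeq2 (0.0312). CCN2, another YAP target named after its values were seen, was at 51.8, 37.7 and 31.7 CPM against 12.4, 2.88 and 3.98 CPM (−2.70 ± 0.85, edgeR adjusted p = 0.263). In the untreated WT libraries of the enzyme arm at day 7.5, CCN2 was at 1.48 to 8.3 CPM, which overlaps KO. ANKRD1 was at 369 to 1630 CPM there, above KO. NPPA, the atrial natriuretic peptide, was at 206, 173 and 426 CPM against 107, 143 and 144 CPM (−1.07 ± 0.82).

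All 28 tested genes of sterol and fatty acid synthesis had a negative sign, with a range from −1.11 to −0.09 and a median of −0.69. None was called by edgeR or DESeq2, and 11 were lower at an unadjusted p under 0.05. Their sum was 4583, 4481 and 5063 CPM in WT_R1, WT_R2 and WT_TU_R2 and 3798, 2738 and 3098 CPM in cl4_R2, cl4_R3 and cl14_R1. The sums did not overlap, and within block B the median was −0.33. SCD, the desaturase that makes monounsaturated fatty acids, was at 564, 568 and 696 CPM against 377, 183 and 322 CPM (−1.09 ± 0.37, edgeR adjusted p = 0.408). HMGCS1, an early enzyme of the cholesterol pathway, was at 494, 467 and 582 CPM against 424, 230 and 297 CPM (−0.73 ± 0.30, edgeR adjusted p = 0.661).

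In the list of hyaluronan synthesis, breakdown and binding, 14 of 30 genes passed the filter on low counts. None was called by edgeR or DESeq2, and the median was 0.03. At an unadjusted edgeR p under 0.05, 1 was lower and 4 were higher, against 3.23% and 2.3% of all genes. VCAN, versican, the large proteoglycan that binds hyaluronan in the cardiac jelly, was at 2766, 3707 and 4743 CPM in WT_R1, WT_R2 and WT_TU_R2 and at 3430, 3600 and 3400 CPM in cl4_R2, cl4_R3 and cl14_R1, with overlapping groups. HAPLN1, the link protein that fastens versican to hyaluronan, named after its values were seen, was at 30.8, 57.9 and 105 CPM against 140, 169 and 234 CPM (log2 1.46 ± 0.44, edgeR adjusted p = 0.247). FN1, the adhesive glycoprotein fibronectin, was at 723, 625 and 433 CPM against 968, 1425 and 1545 CPM (2.15 times the WT level, edgeR adjusted p = 0.24). In both HAPLN1 and FN1 every KO library lay above every WT library.

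Markers of other cell types were read in the same way. Of 17 tested genes of definitive endoderm and liver (26 in all), 15 had a positive sign, with a median of 1.75. None was called by edgeR and 2 were higher by DESeq2, while 7 were higher at an unadjusted p under 0.05, against 2.3% of all genes. Their sum was 413, 342 and 503 CPM in WT_R1, WT_R2 and WT_TU_R2 and 575, 918 and 579 CPM in cl4_R2, cl4_R3 and cl14_R1. Every KO sum lay above every WT sum, and within block B the median was 1.00. EPCAM, an adhesion molecule of epithelia, was at 2.57, 5.58 and 1.29 CPM against 11.7, 17.8 and 12.6 CPM (2.13 ± 0.56, edgeR adjusted p = 0.086). The lipoprotein gene APOB was at 11.8, 28.6 and 44 CPM against 65.1, 199 and 89.6 CPM (2.05 ± 0.65, edgeR adjusted p = 0.284). FOXA3, a liver and gut transcription factor, had no count in WT and 3, 10 and 5 counts in cl4_R2, cl4_R3 and cl14_R1. EPCAM and FOXA3 are named after their values were seen. In the untreated WT libraries of the enzyme arm at day 7.5, the list summed to 343 to 797 CPM and APOB was at 23 to 215 CPM. Both ranges overlap KO. EPCAM was at 3.19 to 11.6 CPM and FOXA3 at 0.638 to 1.78 CPM there. Every KO value lay above these ranges, but only just, with cl4_R2 at 11.7 and 1.95 CPM. AFP, the fetal albumin, overlapped at 13.3 to 40.7 CPM in WT and 24.7 to 48.9 CPM in KO. In the epithelial adhesion list 13 were tested and MAL2 was called higher, with a median of 0.88 and of −0.21 within block B. The part of such cells in the other results was not tested.

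The lists not yet described held no called gene. Their medians were −0.41 for calcium handling and excitation (18 tested), 0.20 for cardiac transcription factors (22), −0.36 for the respiratory chain (30), −0.28 for the TCA cycle and fatty acid oxidation (25), −0.06 for glycolysis and hypoxia (27) and −0.37 for p53 targets (21). They were −0.27 for basement membrane (16), 0.09 for interstitial matrix and fibroblasts (17), 0.13 for smooth muscle cytoskeleton (14), 0.18 for endothelium (10), 0.44 for epicardium (6), 0.15 for neural and neural crest (7), 0.05 for pluripotency (12) and 2.04 for blood (3). At an unadjusted p under 0.05 in edgeR each had at most 5 genes lower and 2 higher, and DESeq2 called 1 cardiac transcription factor higher and 1 p53 target lower.

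The KO effect was then set against that at day 4.5, with 6 WT and 6 KO libraries of the same protocol, none shared with day 7.5. The lines differ in part: day 4.5 also holds clones cl46 and cl51 and the WT lines cl43_WT_UT and TNT2, which have no library at day 7.5 here. In 22 of 13797 genes (0.159%) the effect differed between the days, 19 (0.138%) with a more negative and 3 (0.0217%) with a more positive value at day 7.5 (edgeR quasi-likelihood test of the difference, Benjamini-Hochberg adjusted). Of the 22, 17 were among the 48 called at day 7.5. This count depended on which libraries set the spread: with the 4 groups compared alone in the fit, 2 genes were called and none was more negative at day 7.5. With day 4.5 cut to the lines of day 7.5 (4 WT and 4 KO libraries), 10 genes were called, 9 of them more negative at day 7.5. Of these 10, 8 were among the 22, and 4 were of the mitosis list. This choice was made after seeing the data. With 1 library of day 7.5 left out, the count was 9 without WT_R2, 10 without cl4_R2, 11 without cl4_R3, 12 without WT_TU_R2, 14 without cl14_R1 and 16 without WT_R1. CCNA2 led, with a KO effect of −0.67 at day 4.5 and −3.01 at day 7.5 (difference −2.34 ± 0.34, edgeR adjusted p = 0.000345). Its mean level was 36.1 ± 6.17 CPM (SD, n = 6) at day 4.5 and 21.9 ± 1.68 CPM (SD, n = 3) at day 7.5 in WT. In KO it was 23.8 ± 8.12 CPM and 2.72 ± 0.697 CPM. KIF2C, DEPDC1, NCAPG, CCND2 and ARHGAP11A had KO effects from −0.45 to 0.17 at day 4.5 and differences from −2.90 to −1.73 (edgeR adjusted p = 0.00117). In the mitosis list 9 of 40 genes had a more negative effect at day 7.5, and the list's median KO effect was 0.07 at day 1.5, 0.09 at day 2.5, −0.14 at day 4.5 and −1.84 at day 7.5. In the sarcomere list the medians were −0.47 at day 2.5, −1.16 at day 4.5, where 12 of 27 were called lower (2.6% of all genes), and −0.17 at day 7.5, and no member passed the test of the difference between days. ANXA2 and COL2A1 were also called lower at day 4.5 (−2.25 and −1.96), and SEMA3E, MMP16 and LHX1 also called higher (1.41, 1.25 and 0.91). In all, 9 of the 48 genes were called at day 4.5 in the same direction, which is 18.8% of the 48 and 1.74% of the 516 called there (3.74% of the genes tested).

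In the enzyme arm, 3 WT libraries given hyaluronidase from day 1.5 (HAse1.5) were compared with 3 untreated ones at day 7.5. Their lines are named TNNI1, WT and TNNT2, with 1 treated and 1 untreated library of each, and no library is shared with the KO comparison. The fit did not use this matching by line. HAse1.5 called 363 of 14047 genes (2.58%). Of the 48 KO genes, 20 were among them, all in the same direction, which is 41.7% of the 48 and 5.51% of the 363. Of the 40 lower genes 39 were negative with HAse1.5. The mitosis list had a median of −1.84 with KO and −1.23 with HAse1.5, where 11 of 40 were called lower (1.6% of all genes). Its sum was 1656 to 2735 CPM in untreated and 679 to 1273 CPM in HAse1.5 libraries, without overlap. CCNA2 had −1.92 after HAse1.5 (edgeR adjusted p = 0.000279) and DEPDC1 −3.20 (edgeR adjusted p = 1.21e-05). ANXA2 (−1.97) and COL2A1 (−2.76) were called lower with the enzyme, and LHX1 (4.11) and COL6A4P2 (2.72) higher.

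**Figure D4:**
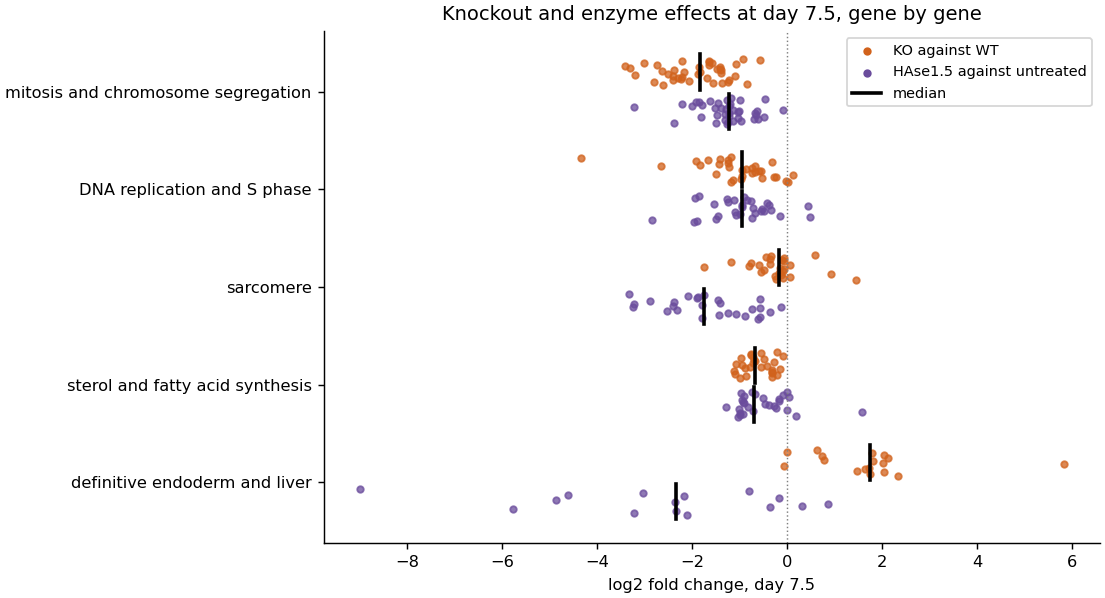
Log2 fold changes at day 7.5 of the tested genes of 5 lists, KO against WT in orange and HAse1.5 against untreated in purple. Each point is a gene and each black line a median. The mitosis list is below 0 in both (medians −1.84 and −1.23), while the endoderm and liver list has medians of 1.75 and −2.34.

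The KO and HAse1.5 effects were tested against each other in a fit of all 65 libraries. They differed in 13 of 14047 genes (0.0925%), 9 (0.0641%) with a higher and 4 (0.0285%) with a lower value in KO. Leaving out 1 library gave 3 (without cl4_R3) to 8 genes, except for 11 without cl4_R2, 17 without TNNT2_R3 of HAse1.5 and 35 without the untreated WT_R2. No member of the mitosis or the sarcomere list was among the 13. The sarcomere medians were −0.17 in KO and −1.76 with HAse1.5, where 9 of 27 were called lower and the list summed to 41643 to 47133 CPM, against 87242 to 101461 CPM in untreated libraries. Liver genes were among the 13. AFP averaged 25.2 ± 14.1 CPM over the WT libraries and 39.8 ± 13.2 CPM over the KO libraries (SD, n = 3), while it was at 9.64 to 83.9 CPM in untreated and at 0 in every HAse1.5 library (difference of the effects, edgeR adjusted p = 0.00277). APOB had a log2 fold change of 2.05 in KO and −4.61 with HAse1.5 (difference 6.66 ± 1.09, edgeR adjusted p = 0.00149). USP28, a deubiquitinase, was at 195 to 264 CPM in WT and 225 to 254 CPM in KO, against 282 to 356 CPM in untreated and 83.1 to 108 CPM in HAse1.5 libraries (difference 1.83 ± 0.31, edgeR adjusted p = 0.00162). SYTL5, a vesicle-traffic protein, overlapped between WT and KO and was at 0 in every HAse1.5 library, against 17.8 to 24.9 CPM untreated. STC1, a secreted glycoprotein hormone, had 0.91 in KO and −2.91 with HAse1.5, and IGFBP6, a binder of insulin-like growth factors, 0.99 and −1.81. JUNB was the one gene of the 48 in this set, with −2.72 in KO, while it was at 1.48 to 5.11 CPM in untreated and 2.79 to 16.3 CPM in HAse1.5 libraries (difference −4.30 ± 0.96, edgeR adjusted p = 0.04). Treatment from day 2.5 (HAse2.5), set against the same untreated libraries, gave a mitosis median of −0.97, a sarcomere median of −0.63 and an endoderm and liver median of −3.29, with 73 genes called (0.52%).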

How the data were processed

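Gene expression was measured by 3′ mRNA sequencing (QuantSeq FWD, single reads, NovaSeq), per the labels' protocols. The authors deposited a table of unnormalized read counts, with Ensembl gene IDs in rows and libraries in columns. The submitters' processing notes name Subread 1.6.2, featureCounts and GRCh38/hg38. The strand setting, the handling of reads matching several genes and any molecular identifiers are not given in the sources used here. All 58735 gene IDs occur in GENCODE 29, which gave positions on GRCh38, and 4 columns belonging to no listed sample were not used.

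Columns were matched to titles by library name. Counts of the 41 genotype-arm libraries were filtered with filterByExpr (minimum count 10), scaled with TMM (factors 0.971 to 1.026 at day 7.5) and fitted with edgeR 4.0.16 in R 4.3.3 (robust quasi-likelihood, 1 mean per group). P-values are two-sided, adjusted by Benjamini-Hochberg over all tested genes. CPM is a count per 1000000 of the library total, and 95% intervals of log2 fold changes are the estimate ± 1.96 SE. Counting intervals cover counting error only, since PCR reads are not independent molecules. The test was checked on simulated counts.

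Named genes are all called higher genes, the 25 called lower genes with the smallest p, called list members, the 3 most abundant tested genes of each list, the 6 most significant of each test of a difference, and HAS2; not all are printed. The members and the 24 lists were chosen with earlier results of these data known. Alternatives were other scalings, filters, DESeq2 1.42.0, smaller fits, replicate and library-number blocks, summed lines and leaving out each library, and, added after seeing the data, a block for the enzyme arm's lines and day 4.5 cut to the lines of day 7.5. No sequence beyond 5 promoters is printed.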

Additional observations from a re-analysis of the deposited data

Results flagged for a closer look

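The KO effect at day 7.5 differed from that at day 4.5 in 22 genes by edgeR's test of the difference (Benjamini-Hochberg adjusted). The 6 with the smallest p-values all had a more negative effect at day 7.5. The differences on the log2 scale were −2.34 for CCNA2, −2.62 for ARHGAP11A, −1.73 for CCND2, −2.75 for KIF2C, −2.90 for DEPDC1 and −2.13 for NCAPG.

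The KO effect differed from the HAse1.5 effect at day 7.5 in 13 genes by the same kind of test. The 6 with the smallest p-values had a higher value in KO. The differences on the log2 scale were 6.66 for APOB, 1.83 for USP28, 3.83 for STC1 and 2.81 for IGFBP6. For AFP and SYTL5 the fitted differences were 9.64 and 8.31. Every HAse1.5 library had 0 counts of these 2 genes, so the fitted values depend on the prior count and are no measure of size.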

How the results depend on the processing

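Of the 48 called genes, 15 were called under all 16 alternatives and ASS1 under the 15 that gave it a value, and none changed sign. The count of 48 was 193 with the 2 groups alone in the fit (67 higher, 126 lower, 39 shared), 115 with library-number blocks (10 and 105, 47 shared), 109 within block B (18 and 91, 33 shared), and 27 to 40 without 1 library. With the libraries of each line summed, the count was 39 (5 higher, 34 lower, 36 shared). The mitosis list had 30 called genes in place of 16 with library-number blocks. The 22 genes of the day difference became 35 with DESeq2, 2 with only the groups compared, 129 with library-number blocks (54 higher, 75 lower), 13 with lines summed, 10 with day 4.5 cut to the lines of day 7.5, and 9 (without WT_R2, day 7.5) to 28 (without cl4_R1, day 4.5). The 13 genes of the enzyme difference became 142 with no filter, 45 with only the groups compared, and 3 (without cl4_R3) to 35 (without untreated WT_R2). The causes were not tested.

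Replicate numbers did not pair the day 7.5 libraries (r of −0.0742, 0.000799 and 0.0202 for same-numbered pairs). With them as a replicate block, 61, 34 and 14 genes were called in the 3 tests and 17 in the mitosis list. The enzyme arm's libraries are paired by line. With line as a replicate block there, HAse1.5 called 387 genes in place of 363 (354 shared), and the enzyme difference 15.

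Some signs turned, of values near 0 and of MYL3 (−0.76 ± 0.64 in the report's fit). With library-number blocks the sarcomere median was 0.18, MYH6 0.21, TTN −0.55, TNNT2 0.16, MYL3 0.18 and NKX2-5 0.62. Within block B, HAS2 was −0.22, TTN −0.06, NKX2-5 0.14 and AFP −0.14. Leaving out 1 library gave −0.02 (WT_R1) to 0.44 (WT_TU_R2) for HAS2, −0.31 (WT_R2) to 0.15 (WT_R1) for NKX2-5, −0.30 (WT_R1) to 0.06 (WT_TU_R2) for VCAN, and −0.11 for TTN without WT_R1. VCAN was 0.05 with the replicate block, and TTN −0.00 with lines summed. Many called genes rest on few counts: the median mean level of the lower genes was 12.2 CPM, against 21.9 CPM for all tested genes.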
